A study of Mus musculus with 7 samples.

Results

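The loss of 1 Agbl5 allele was examined in mouse eye RNA by setting 2 heterozygous libraries against 2 wildtype libraries, with 3 knockout libraries read beside them. All 4 libraries of the heterozygous and wildtype genotypes entered the comparison, out of 7 libraries in all. Of 54532 gene models listed, the 15472 with a mean of at least 1 FPKM (fragments per kilobase of gene, scaled to library size) over the 7 libraries were tested. For each shift between heterozygous and wildtype, the knockout level was used to ask whether the shift went further when both alleles were lost, stayed about where it was, or was absent. The groups were labelled wildtype, heterozygous and knockout for Agbl5, in the tissue labelled eyeball, while the extraction protocol spoke of retina. The labels gave neither the strain, age or sex of the mice, nor the design of the allele, nor whether the libraries of a genotype came from separate animals. The p-values therefore measure the spread between these libraries, which may be technical.

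Agbl5 encodes the cytosolic carboxypeptidase CCP5, an enzyme that removes the branch-point glutamate from glutamate side chains added to tubulin tails. Polyglutamylation marks long-lived microtubules such as the axoneme of the photoreceptor connecting cilium, and it is added by TTLL ligases and shortened by other carboxypeptidases such as CCP1 (Agtpbp1). Photoreceptors move outer segment proteins along this cilium, and stressed photoreceptors release signals to which Mueller glia, the main glia of the retina, respond by raising stress and acute-phase genes.

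The values carried 12238268 to 14327633 recovered reads per library. The gene model Gm23935 took 5.45% and 2.16% of the summed FPKM in wildtype, 5.95% and 11.3% in heterozygous and 17.2%, 7.04% and 14.7% in knockout libraries, so its share was higher in both heterozygous than in both wildtype libraries, and its part in the shifts below was not tested. Heterozygous 1 was rich in lens transcripts, as was knockout 1: the lens crystallin Cryaa stood at 1733 FPKM in heterozygous 1 and 2541 in knockout 1, against 1.11 to 12.3 in the other 5 libraries. The 30 rod photoreceptor genes had mean levels of 8.05 to 8.18 on the log2(FPKM + 1) scale in all 7 libraries. By Xist and the Y-linked Ddx3y the libraries also differed in sex: wildtype 2 and knockout 3 had Xist at 181 and 158 FPKM and Ddx3y at 0, and the other 5, among them both heterozygous libraries, had Ddx3y at 15.3 to 17.7. The correlation of log2(FPKM + 1) across genes was 0.975 between the wildtype libraries and 0.951 between the heterozygous ones. In bulk tissue, fewer cells of a type and less RNA per cell cannot be told apart.

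Agbl5 transcript itself followed the genotype. Agbl5 lies on chromosome 5 at chr5:30888694-30906965, plus strand, in GRCm38, has 16 annotated exons and overlaps Ost4. It was at 9.89 and 8.56 FPKM in the wildtype libraries, at 4.21 and 5.34 in the heterozygous libraries, and at 1.53, 1.73 and 1.26 in the knockout libraries. No library of one genotype overlapped with those of the next. The heterozygous mean was 51.8% of the wildtype mean (45.6% in heterozygous 1 and 57.9% in heterozygous 2), and the knockout mean was 16.4%. On the log2(FPKM + 1) scale, which understates the change of low genes, heterozygous minus wildtype was -0.83 ± 0.14 (SE; 95% interval -1.17 to -0.48). Its unadjusted p was under 0.05, but its adjusted p in limma was 0.974. Knockout minus wildtype was -2.03 (limma, adjusted p = 0.0041) and knockout against heterozygous also passed (limma, adjusted p = 0.0239). The heterozygous level lay 0.19 above the midpoint of wildtype and knockout on that scale, a deviation that did not pass (limma, adjusted p = 0.706). Over 20 alternative settings the heterozygous difference ran from -0.996 to -0.69, with an unadjusted p under 0.05 in all 20.

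No gene, Agbl5 included, passed the adjusted threshold between heterozygous and wildtype. After Benjamini-Hochberg adjustment over the 15472 genes, 0 genes (0%) passed in limma, with a smallest adjusted p of 0.348, and a second test, limma's voom on the recovered reads, also called 0. At an unadjusted p under 0.05, 619 genes (4%) differed, 239 higher (1.54%) and 380 lower (2.46%) in the heterozygous libraries, while 4643 genes (30%) had heterozygous and wildtype libraries that did not overlap. In the same fit 50 genes (0.323%) passed the adjusted threshold between knockout and wildtype, 41 higher (0.265%) and 9 lower (0.0582%), and 49 (0.317%) passed between knockout and heterozygous. The genes below are therefore described by their levels, and differences are on the log2(FPKM + 1) scale with the standard error of this limma fit. A gene called higher or lower had an unadjusted p under 0.05 unless stated otherwise, and the adjusted p of each such gene was 0.974.

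The 619 genes were sorted by what the knockout libraries did. A shift was termed dose-like when all 3 knockout libraries lay beyond both heterozygous ones in the direction of the shift, held when all 3 lay beyond both wildtype libraries without that order, and not held otherwise. There were 21 dose-like genes (0.136% of all tested; 14 higher, 0.0905%, and 7 lower, 0.0452%), 235 held and 363 not held. Among the 239 higher genes, 5.86% were dose-like, 41.4% held and 52.7% not held. Among the 380 lower genes, 1.84% were dose-like, 35.8% held and 62.4% not held. Over all tested genes, with no threshold on p, 194 genes (1.25%) stood in the strict order of wildtype, heterozygous and knockout, 97 upward (0.627%) and 97 downward (0.627%). Of the 619 genes, 222 were small RNA or predicted models; leaving these out left 397 genes, 15 dose-like, 142 held and 240 not held. The heterozygous and knockout differences share the wildtype libraries, so values of both are given side by side and their likeness is not read as support.

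Among named gene models, the dose-like class was led upward by acute-phase and glial genes. Serpina3n encodes a secreted protease inhibitor raised in reactive glia. It was at 1.72 and 2.73 FPKM in wildtype, 5.11 and 4.64 in heterozygous, and 21.2, 16.9 and 16.1 in knockout libraries. The 3 genotypes did not overlap, and both heterozygous libraries stood well below all knockout ones. Heterozygous minus wildtype was 0.88 ± 0.18 (log2, SE), which was 34.3% of the knockout difference of 2.57 (limma, adjusted p = 0.0041). A2m, the broad protease inhibitor alpha-2-macroglobulin, was at 1.00 and 1.13, then 2.38 and 1.79, then 7.76, 5.90 and 6.43 FPKM. Its heterozygous difference of 0.57 ± 0.15 was 30.2% of a knockout difference of 1.89 (limma, adjusted p = 0.0051). In knockout both genes rose. In heterozygous eyes both were higher in each library than in either wildtype library. Their distance from the midpoint of wildtype and knockout was -0.40 for Serpina3n and -0.37 for A2m. Both distances had an unadjusted p under 0.05 but did not pass after adjustment (limma, adjusted p = 0.624 and adjusted p = 0.616).

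**Figure D1:**
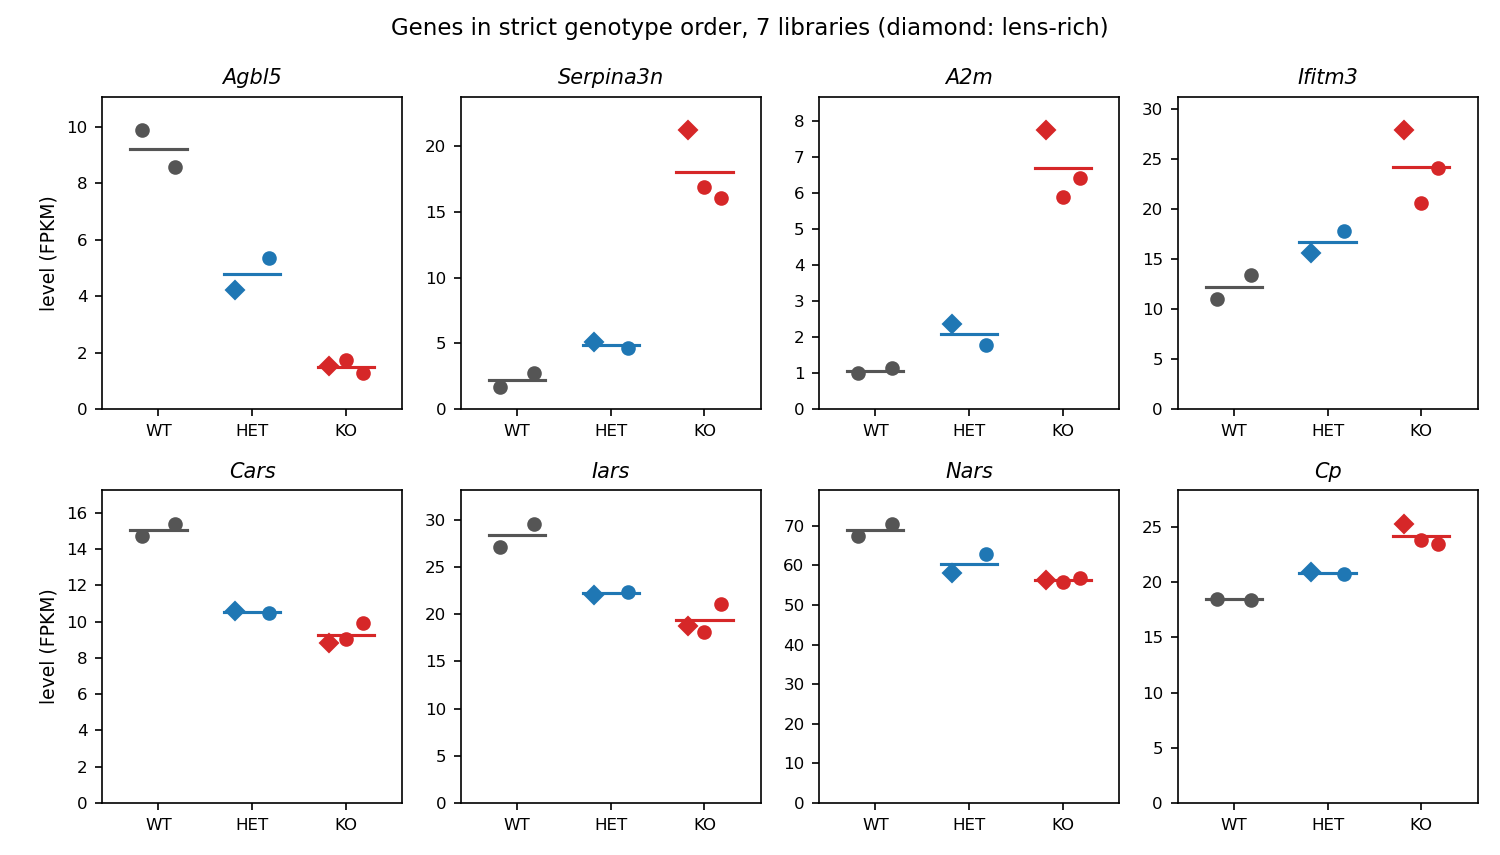
FPKM of dose-like genes by genotype, 1 point per library (WT wildtype, HET heterozygous, KO knockout), each panel with its own axis from 0, horizontal lines for the genotype means and diamonds for the lens-rich libraries. Agbl5 and Cars step down and Serpina3n and A2m step up from wildtype to heterozygous to knockout, with Serpina3n at 4.64 to 5.11 FPKM in the heterozygous and 16.1 to 21.2 in the knockout libraries.

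Further upward members had smaller differences. Ifitm3, an interferon-induced membrane protein that restricts virus entry, was at 10.99 and 13.4 FPKM in wildtype, 15.6 and 17.7 in heterozygous and 27.9, 20.6 and 24.1 in knockout libraries, a heterozygous difference of 0.42 ± 0.16 and 45.6% of the knockout one. Cp, the copper-carrying ferroxidase ceruloplasmin made by Mueller glia, was at 18.5 and 18.4, 20.9 and 20.7, and 25.3, 23.8 and 23.5 FPKM. Its difference was small but its replicates were close: 0.16 ± 0.06, 44.4% of the knockout difference. Over 21 alternative settings the Cp difference ran from 0.094 to 0.19, with an unadjusted p under 0.05 in 7. Slc14a1, a urea transporter, was 0.35 ± 0.10 higher, with 3.73 and 3.32 FPKM in wildtype, 5.10 and 4.41 in heterozygous and 5.26 to 5.84 in knockout libraries. Bub1b, a spindle checkpoint kinase, was at 4.57 and 6.55, 7.05 and 8.46, and 10.1, 9.17 and 8.83 FPKM (0.43 ± 0.16). For none of these 4 genes did the knockout difference pass the adjusted threshold, the adjusted limma p being 0.0895 for Ifitm3, 0.0958 for Cp, 0.132 for Slc14a1 and 0.273 for Bub1b.

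Thg1l, which adds a guanosine to histidine tRNA, stood at 2.77 and 2.79 FPKM in wildtype, 3.36 and 4.37 in heterozygous and 4.61 to 5.38 in knockout libraries (0.36 ± 0.13). Tmem102, a transmembrane protein, was 0.37 ± 0.15 higher at levels of 0.583 to 1.55 FPKM. Among the rest, chosen after their values were seen, Psmb10, an immunoproteasome subunit, was 0.31 ± 0.10 higher, Fbxl2 0.17 ± 0.07 higher and Kcnip2, a potassium channel partner, was lower (-0.30 ± 0.09). The heterozygous and knockout means of Fbxl2 were close, 6.17 and 6.27 FPKM, so its place in the strict order rests on small steps.

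Downward, the dose-like class was led after Agbl5 by enzymes that charge transfer RNA. Cars, the cysteinyl-tRNA synthetase, was at 14.7 and 15.4 FPKM in wildtype, 10.6 and 10.5 in heterozygous and 8.82, 9.03 and 9.93 in knockout libraries. Both heterozygous libraries sat close together and far from wildtype, at a difference of -0.48 ± 0.08, 74.0% of the knockout difference of -0.65. In knockout Cars fell (limma, adjusted p = 0.0229). Iars, the isoleucyl enzyme, was at 27.1 and 29.6, 22.02 and 22.4, and 18.8, 18.1 and 21.1 FPKM, a heterozygous difference of -0.34 ± 0.09 and 63.6% of the knockout one. Nars, the asparaginyl enzyme, was at 67.5 and 70.5, 58.1 and 62.7, and 56.2, 55.8 and 56.7 FPKM (-0.19 ± 0.06).

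These enzymes were then read as a whole family. The list of cytosolic aminoacyl-tRNA synthetases was drawn up after values of these libraries had been seen, and its counts are not independent evidence. Of 20 tested, 8 were lower and 0 higher in heterozygous libraries at an unadjusted p under 0.05, beside 2.46% lower over all genes, and 17 of 20 had a difference below 0. The median difference was -0.15, with -0.19 in heterozygous 1 and -0.13 in heterozygous 2, against -0.01 over all tested genes. For all 8, every knockout library also lay below both wildtype libraries: 3 were dose-like and 5 held. In knockout the median of the 20 was -0.16, 10 were lower at an unadjusted p under 0.05, beside 3.24% of all genes, and 1, Cars, was called.

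The 5 held synthetases had heterozygous levels within or near the knockout range. Mars, for methionine, was at 39.0 and 42.2 FPKM in wildtype, 27.4 and 27.8 in heterozygous and 25.9, 22.8 and 28.2 in knockout libraries (-0.54 ± 0.10); it overlaps Ddit3 on the opposite strand, and the library kit does not mark strand. Yars, for tyrosine, was at 18.3 and 18.7, 14.7 and 13.3, and 13.1, 13.3 and 14.4 FPKM (-0.38 ± 0.08). Aars, for alanine, was at 30.7 and 33.0, 26.7 and 23.3, and 24.9, 24.2 and 25.7 FPKM (-0.34 ± 0.08). In each of these 3 genes the heterozygous and knockout libraries formed 1 group below wildtype. Tars, for threonine, had 12.2 and 11.9, then 10.2 and 9.48, then 10.6, 10.4 and 9.99 FPKM (-0.27 ± 0.07). Sars, for serine, was lower by a smaller step (-0.18 ± 0.06).

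Without heterozygous 1 the count of lower synthetases at an unadjusted p under 0.05 was 8, without heterozygous 2 it was 10, without wildtype 1 it was 7 and without wildtype 2 it was 5, when 4.32%, 7.18%, 1.04% and 2.06% of all genes were lower. Leaving out wildtype 2, the Xist-expressing wildtype library, thus moved the count by over 1.5 times. The part of sex in these differences was not tested.

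Amino acid shortage and stress of the endoplasmic reticulum act on many synthetase genes through the transcription factor ATF4, which binds composite C/EBP-ATF elements in their promoters. Promoters from RefSeq (GRCm38.p6, 250 bases before to 50 bases after the start) were searched on both strands for the core TGATGNAA, reverse complement TTNCATCA. It was present in 1304 of 32851 promoters (3.97%), or 1219 of 27025 genes (4.51%). Among the 8 lower synthetases, 5 had a promoter in the table and 4 of these held the core, in Yars, Aars, Tars and Iars but not Sars. Among the other 12, 7 had a promoter and 1, Gars, held it. The 4 promoters are shown because they belong to the lower synthetases with a match; each run gives 130 bases before to 20 after the start, 5′ to 3′ on the gene's strand, with capitals marking the core.
Yars, chr4:129189773-129189922, plus strand: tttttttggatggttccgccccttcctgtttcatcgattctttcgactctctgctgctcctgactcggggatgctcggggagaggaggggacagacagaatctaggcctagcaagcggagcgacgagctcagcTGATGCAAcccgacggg
Aars, chr8:111033712-111033861, plus strand: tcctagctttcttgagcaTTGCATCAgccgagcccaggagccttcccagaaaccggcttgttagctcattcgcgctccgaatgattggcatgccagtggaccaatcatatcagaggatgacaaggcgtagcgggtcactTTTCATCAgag
Tars, chr15:11399639-11399788, minus strand: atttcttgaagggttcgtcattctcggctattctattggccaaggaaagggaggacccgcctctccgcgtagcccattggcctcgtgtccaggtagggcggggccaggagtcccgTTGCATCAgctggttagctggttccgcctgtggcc
Iars, chr13:49682000-49682149, plus strand: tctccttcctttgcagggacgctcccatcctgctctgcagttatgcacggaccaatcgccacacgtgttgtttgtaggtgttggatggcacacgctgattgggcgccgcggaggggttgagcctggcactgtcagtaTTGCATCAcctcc
Counted from the start of transcription as base 1, the core began at base 4 in Yars and base 8 in Iars, 15 bases before the start in Tars, and at both 112 bases before it and base 10 in Aars. A match is a description of these letters, not evidence of binding. Gars, whose promoter held the core too, was at 33.0 and 39.5 FPKM in wildtype and 33.2 and 26.1 in heterozygous libraries, which overlapped (-0.29 ± 0.14, unadjusted p over 0.05).

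Other genes known to respond to ATF4 gave a mixed picture. This list too was chosen after values had been seen: of 25 tested, 5 were lower and 0 higher at an unadjusted p under 0.05, beside 2.46% lower over all genes, and 20 did not pass. The median was -0.06, with 17 differences below 0 and 8 above. Both heterozygous libraries lay above both wildtype ones in 5 genes and below both in 10. Over the 15471 tested genes other than Agbl5 these counts were 2217 and 2425. Mthfd2, the mitochondrial one-carbon enzyme, was at 5.39 and 6.33 FPKM in wildtype, 3.27 and 2.24 in heterozygous and 2.67, 2.64 and 2.47 in knockout libraries. Its heterozygous difference of -0.88 ± 0.15 stood beside a knockout one of -0.93 (limma, adjusted p = 0.0803). Aldh18a1, which makes the precursor of proline, was at 13.05 and 17.0, 9.65 and 7.49, and 8.001, 6.56 and 9.02 FPKM (-0.74 ± 0.19). Both were held in knockout, as was Ddit3 (CHOP), a stress-induced transcription factor, at 26.5 and 24.8, 18.3 and 21.5, and 23.2, 22.6 and 20.8 FPKM (-0.35 ± 0.10). Shmt2, which moves a one-carbon unit from serine, and Trib3, a pseudokinase, were lower but not held. Shmt2 was at 13.6 and 14.1 FPKM in heterozygous libraries against 17.8 and 15.3 in wildtype and 16.1 to 16.9 in knockout (-0.24 ± 0.08). Atf4 transcript showed no such difference, with -0.06 ± 0.11 (unadjusted p over 0.05) and levels of 81.5 to 98.5 FPKM in all 7 libraries. Of 20 unfolded protein response genes, 4 were lower (2.46% over all genes) and 0 higher: Ddit3, Trib3, Atf3 and Herpud1, a membrane protein of endoplasmic reticulum degradation (-0.30 ± 0.09). Without wildtype 1 the differences of most of these lower genes were smaller in size. They were -0.13 for Shmt2, -0.28 for Trib3, -0.31 for Ddit3, -0.59 for Atf3 and -0.22 for Herpud1. Those of Mthfd2 and Aldh18a1 were larger in size, at -0.98 and -0.92.

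Immediate early genes, which neurons and glia transcribe within minutes of stimulation, had 5 lower and 0 higher members of 13 tested in heterozygous eyes at an unadjusted p under 0.05, beside 2.46% lower over all genes. Of the 5, 1 was held in knockout and 4 were not, and 12 of the 13 had a difference below 0. The median was -0.19 (-0.19 in heterozygous 1, -0.26 in heterozygous 2), and in knockout it was 0.04. Fos was at 27.0 and 24.5 FPKM in wildtype, 16.9 and 16.9 in heterozygous, and 23.5, 19.0 and 19.3 in knockout libraries (-0.58 ± 0.11). All knockout libraries of Fos lay between the other genotypes, which puts it in the held class. Atf3, a stress-induced factor, was at 4.06 and 3.76, 2.20 and 2.10, and 3.76, 5.36 and 5.81 FPKM (-0.64 ± 0.17). Junb, a partner of Fos, was at 11.6 and 11.1, 8.49 and 8.79, and 19.6, 18.8 and 14.4 FPKM (-0.36 ± 0.14); its reads overlap Prdx2. In Atf3 and Junb the heterozygous libraries were the lowest of all 7, and the knockout means, 4.97 and 17.6 FPKM, lay above the wildtype means of 3.91 and 11.3. Their distance from the midpoint of wildtype and knockout, -0.77 for Atf3 and -0.65 for Junb, did not pass after adjustment (limma, adjusted p = 0.393 and adjusted p = 0.373).

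Nr4a1, an orphan nuclear receptor induced by activity, was at 33.3 and 28.5 FPKM in wildtype, 13.3 and 24.9 in heterozygous and 25.9 to 30.2 in knockout libraries (-0.72 ± 0.26); heterozygous 1, the lens-rich library, was the lower of the pair. Dusp1, a phosphatase of MAP kinases, had a small difference of -0.19 ± 0.08. Related genes outside the list, Nr4a3, Sik1 and Per1, also had their lowest value of all 7 libraries in heterozygous 1. Nr4a3 was at 1.91 and 1.69, 0.189 and 0.781, and 0.783, 0.935 and 0.989 FPKM (-0.94 ± 0.22). Sik1, a kinase induced by cyclic AMP, was at 6.46 and 6.35, 2.53 and 4.57, and 6.02, 4.70 and 4.57 FPKM (-0.74 ± 0.22). The clock gene Per1 was at 33.0 and 30.8, 18.8 and 27.2, and 31.6, 29.0 and 30.2 FPKM (-0.48 ± 0.16). Of 17 circadian genes 2, Per1 and Cry2 (-0.16 ± 0.06), were lower, beside 2.46% lower over all genes.  The number of lower immediate early genes was 3 without heterozygous 1, 3 without heterozygous 2, 2 without wildtype 1 and 3 without wildtype 2, when 4.32%, 7.18%, 1.04% and 2.06% of all genes were lower, so the count rested on having all 4 libraries.

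**Figure D2:**
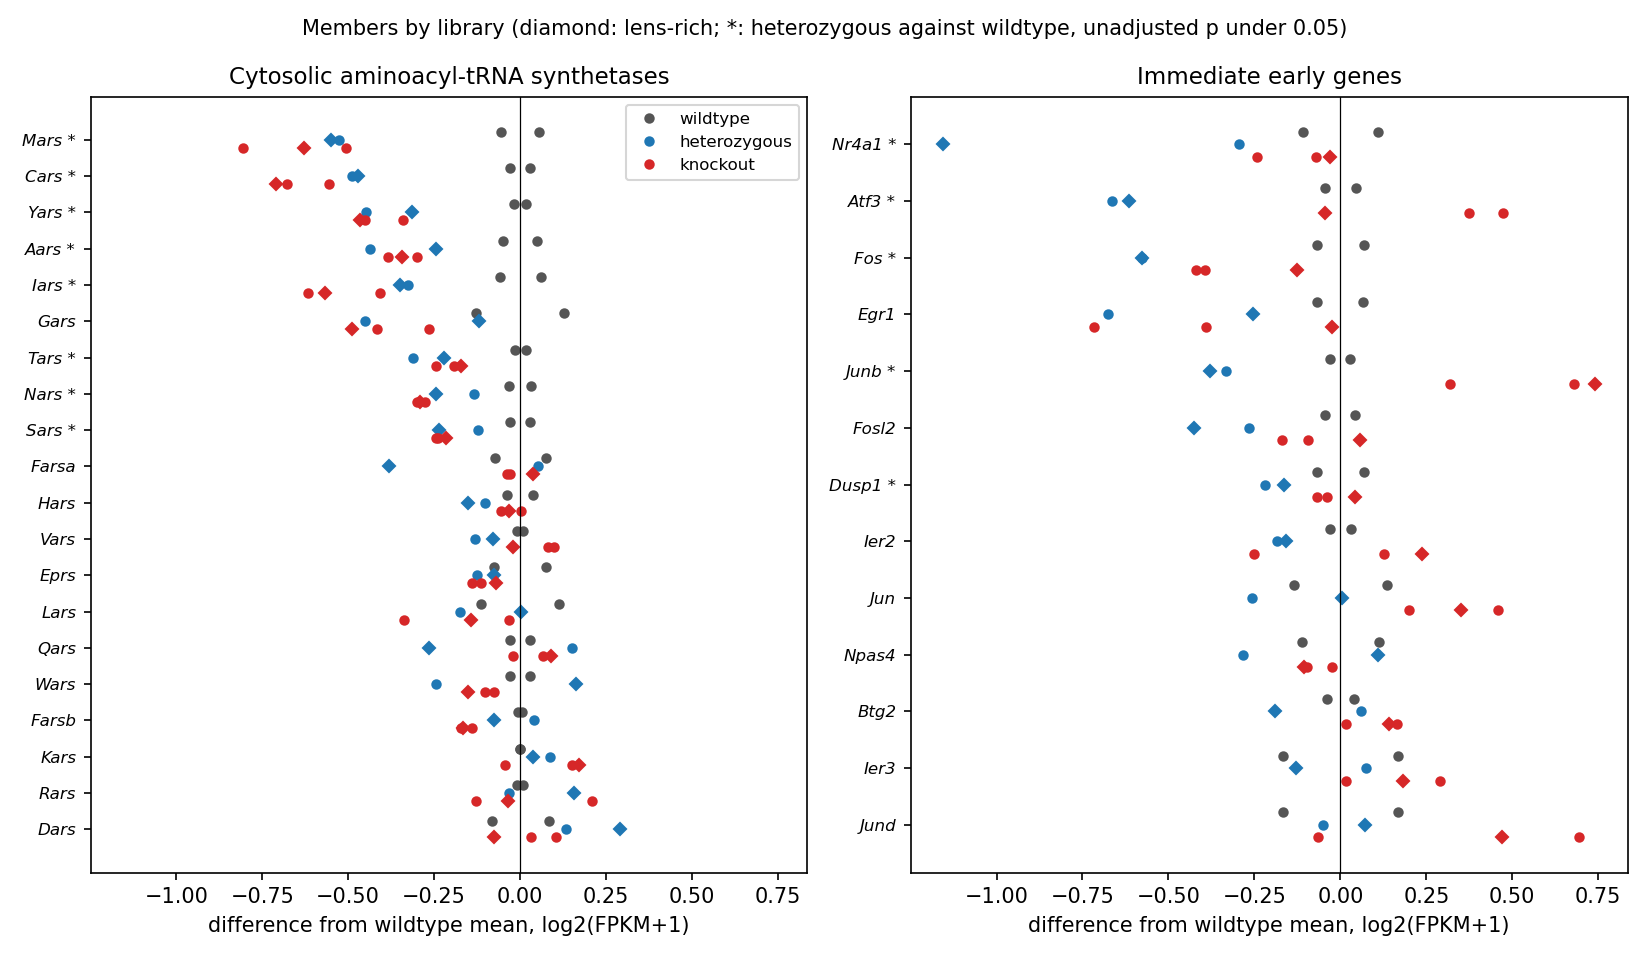
Difference of each library from the wildtype mean, in log2(FPKM + 1), for each tested aminoacyl-tRNA synthetase (left) and immediate early gene (right); colours give the genotype, diamonds the lens-rich libraries, and an asterisk an unadjusted p under 0.05 for heterozygous against wildtype. The heterozygous and knockout points lie together below 0 for Mars and Cars, while for Atf3 and Junb the heterozygous points lie below 0 and the knockout points near or above it.

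Glycolysis showed a similar outline with little support gene by gene. Of 20 gene models tested for 19 listed symbols, 18 had a difference below 0, beside 8068 of the 15471 tested genes other than Agbl5. The median was -0.16 (-0.20 in heterozygous 1 and -0.08 in heterozygous 2) against 0.00 in knockout. At an unadjusted p under 0.05, 1 was lower, beside 2.46% of all genes. That gene, Pfkl, a phosphofructokinase subunit, was at 68.4 and 54.6 FPKM in wildtype, 45.9 and 50.7 in heterozygous and 63.0, 61.9 and 62.6 in knockout libraries (-0.33 ± 0.11). The Pfkl difference was -0.17 without wildtype 1 and -0.49 without wildtype 2, so its size depended on which wildtype library was kept. Sst, the neuropeptide somatostatin of certain amacrine cells, was at 2.75 and 2.76, 1.67 and 1.06, and 3.46, 2.65 and 2.54 FPKM (-0.68 ± 0.17) and was likewise not held.

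Gliosis genes were compared with 1 and with both alleles lost. Of 15 gliosis genes, 7 rose in knockout at the adjusted threshold, beside 0.265% of all genes, with a list median of 1.34. In the heterozygous libraries the median was 0.09 (0.27 in heterozygous 1 and 0.03 in heterozygous 2). At an unadjusted p under 0.05, 2 of the 15 were higher (Serpina3n and A2m), beside 1.54% of all genes. At the same threshold 1 was lower (Cebpd), beside 2.46% of all genes. Edn2, the endothelin released by injured photoreceptors, was at 2.99 and 1.90 FPKM in wildtype, 3.10 and 1.47 in heterozygous and 60.1, 55.8 and 50.9 in knockout libraries. Wildtype and heterozygous libraries overlapped, and every knockout library stood far above them. The heterozygous difference was -0.10 (95% interval -0.71 to 0.51) against a knockout difference of 4.05 (limma, adjusted p = 0.0041), and Edn2 rose from heterozygous to knockout as well (limma, adjusted p = 0.0049).

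Fgf2, a growth factor that supports photoreceptors, was at 2.82 and 3.00, 3.64 and 2.37, and 14.4, 15.2 and 13.8 FPKM. Its heterozygous difference was 0.02 (95% interval -0.34 to 0.37) and its knockout difference 1.98 (limma, adjusted p = 0.0046). Stat3, the transcription factor through which cytokines of the gp130 family signal, was at 7.64 and 7.51, 7.38 and 7.33, and 18.8, 19.5 and 16.8 FPKM, a heterozygous difference of -0.04 (95% interval -0.24 to 0.17) and a knockout difference of 1.17 (limma, adjusted p = 0.0041). In these 3 genes the intervals of the heterozygous difference ended far below the knockout differences. Gfap, the intermediate filament of reactive glia, was less settled: 4.96 and 6.74, 9.62 and 4.94, and 20.1, 23.2 and 16.3 FPKM, with 0.23 (95% interval -0.47 to 0.93) and the high value in lens-rich heterozygous 1; its knockout difference of 1.61 did not pass either (limma, adjusted p = 0.126). The complement gene C4b, named after its values were seen, had a heterozygous difference of -0.00 ± 0.25 and a knockout difference of 2.01 (limma, adjusted p = 0.0261).

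**Figure D3:**
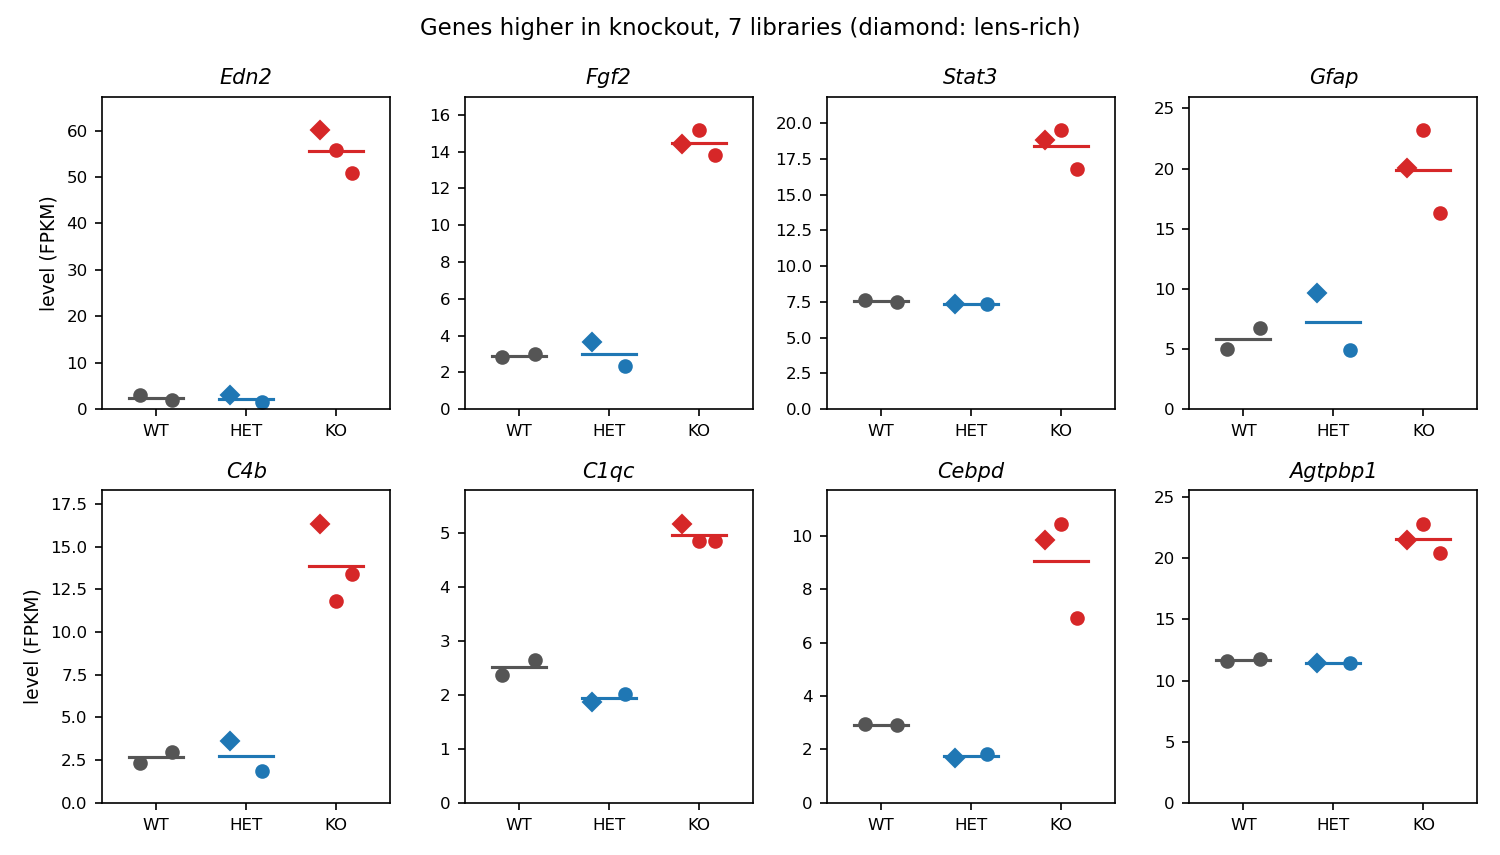
FPKM of genes with higher levels in the knockout libraries, by genotype, 1 point per library, with an axis from 0 in each panel, horizontal lines for the genotype means and diamonds for the lens-rich libraries. For Edn2, Fgf2 and Stat3 the heterozygous points lie among or beside the wildtype points (1.47 to 3.10 FPKM for Edn2), and the knockout points lie well above both.

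A pair of these genes lay below wildtype in the heterozygous libraries and above it in knockout. Cebpd, a transcription factor of the acute-phase response, was at 2.96 and 2.90 FPKM in wildtype, 1.68 and 1.84 in heterozygous and 9.83, 10.4 and 6.93 in knockout libraries. Its heterozygous difference was -0.51 ± 0.18, while it rose in knockout by 1.34 (limma, adjusted p = 0.0365); its reads overlap Spidr. C1qc, a chain of the complement initiator C1q made by microglia, was at 2.37 and 2.64, 1.87 and 2.02, and 5.17, 4.85 and 4.85 FPKM, a difference of -0.25 ± 0.10 against a knockout rise of 0.76 (limma, adjusted p = 0.0281). C1qb and C1qa, which lie beside it, were named after their values were seen. The C1qb difference was -0.07 ± 0.10 and its knockout rise 0.86 (limma, adjusted p = 0.0209). C1qa went the other way, at 0.08 ± 0.20, with 5.00 and 3.89 FPKM in wildtype and 3.88 and 5.67 in heterozygous libraries. Its knockout difference of 1.01 did not pass (limma, adjusted p = 0.158). The microglial receptor Csf1r was 0.13 ± 0.09 higher (unadjusted p over 0.05) and in strict genotype order, at 2.13 and 2.24, 2.57 and 2.38, and 4.86, 4.88 and 5.05 FPKM, and rose in knockout by 0.90 (limma, adjusted p = 0.0119).

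Agtpbp1, the carboxypeptidase CCP1 that shortens glutamate chains, rose in knockout without a heterozygous step. It was at 11.6 and 11.8 FPKM in wildtype, 11.4 and 11.4 in heterozygous and 21.5, 22.8 and 20.4 in knockout libraries. The heterozygous difference was -0.03 (95% interval -0.20 to 0.14) against 0.83 in knockout (limma, adjusted p = 0.0062). Gnb3, the G protein beta subunit of cones and bipolar cells, was at 137 and 126, 116 and 125, and 258, 265 and 230 FPKM. Its heterozygous difference was -0.13 (95% interval -0.35 to 0.09) and its knockout rise 0.92 (limma, adjusted p = 0.0129).

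Whether a heterozygous level departs from the midpoint of wildtype and knockout was tested for every gene. In limma on log2(FPKM + 1) 0 genes (0%) passed, with a smallest adjusted p of 0.160, and 1209 (7.81%) had an unadjusted p under 0.05. By voom on the recovered reads 9 genes passed, among them Edn2 at -2.40 from the midpoint, Fgf2 at -1.13, Stat3 at -0.68, Gnb3 at -0.59 and Agtpbp1 at -0.47 (voom, adjusted p = 0.0433 for each). The direction was the same in limma, where Edn2 lay at -2.13 from the midpoint but did not pass (limma, adjusted p = 0.16). Glb1l3 was the only one of the 9 above the midpoint (1.00; voom, adjusted p = 0.0482), and it was named after its value was seen. The voom and limma calls thus differ for these genes, whose heterozygous libraries sat at the wildtype level.

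Interferon and antigen presentation genes had 1 higher member of 15 at an unadjusted p under 0.05, beside 1.54% higher over all genes. It was B2m, the light chain of MHC class I, at 24.3 and 27.3 FPKM in wildtype, 45.6 and 32.2 in heterozygous and 46.6, 40.8 and 44.7 in knockout libraries (0.55 ± 0.16). The median of the list was 0.11, with 0.15 in heterozygous 1 and 0.06 in heterozygous 2, and 0.38 in knockout. The B2m difference was 0.31 without heterozygous 1, 0.80 without heterozygous 2, 0.47 without wildtype 1 and 0.63 without wildtype 2. Of 10 microglia and macrophage genes, 0 passed at an unadjusted p under 0.05 (median 0.10, knockout 0.51). Of 6 complement genes 1, C1qc, was lower, beside 2.46% lower over all genes. Lgals3bp, a secreted galectin-binding glycoprotein, was higher in heterozygous libraries at 13.5 and 11.5 FPKM against 6.75 and 8.62 in wildtype and was held at 15.3, 11.2 and 15.2 in knockout (0.64 ± 0.18). Of 16 Mueller glia identity genes 1, Cp, was higher, beside 1.54% higher over all genes.

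No gene of the rod and cone lists passed even the unadjusted threshold. Of 30 rod genes 0 passed at an unadjusted p under 0.05, and their median was -0.03. Of 17 cone genes 0 passed and the median was -0.07. The S-opsin Opn1sw differed by 0.03 ± 0.08, at 149 and 138 FPKM in heterozygous and 135 and 148 in wildtype libraries, and the M-opsin Opn1mw by -0.09 ± 0.16. The directions of Opn1sw and Opn1mw turned when heterozygous 1 was left out, to -0.028 and 0.10.

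Genes of the cilium, where the glutamylated axoneme lies, showed few and small differences. Of 31 intraflagellar transport genes 2 were higher and 0 lower at an unadjusted p under 0.05, beside 1.54% higher over all genes, with a median of 0.01. Hspb11 (Ift25), a subunit of the IFT-B particle, was at 2.91 and 3.07 FPKM in wildtype, 4.38 and 3.77 in heterozygous and 2.52, 2.91 and 2.61 in knockout libraries (0.34 ± 0.11). Ift46, another IFT-B subunit, was 0.25 ± 0.09 higher, at 7.21 and 8.13 FPKM against 6.26 and 6.34. Of 33 BBSome and transition zone genes 1, Tmem216, was higher (0.23 ± 0.10; 1.54% of all genes were higher), and it stood below wildtype in knockout, at 6.96, 8.32 and 7.62 against 8.75 and 8.08 FPKM, with overlap. The 12 tubulin glutamylation and deglutamylation enzymes other than Agbl5, the 16 tubulins and the 18 outer segment trafficking genes each had 0 at an unadjusted p under 0.05, with medians of 0.04, -0.01 and -0.10.

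Inner retinal lists held few shifts. Each count of lower genes in this paragraph stands beside 2.46% lower over all genes. A single lower gene is not read as a result about its cell type. Of 12 amacrine genes 1, the glycine transporter Slc6a9, was lower (-0.21 ± 0.07), and of 13 ganglion cell genes 1, the surface glycoprotein Thy1, was lower (-0.18 ± 0.06); both were held in knockout. In both lists the median was lower in heterozygous 2 than in heterozygous 1, -0.27 against 0.04 for amacrine and -0.17 against -0.02 for ganglion cell genes. Of 15 bipolar, 7 horizontal and 15 cell death genes 0 passed. Of 11 vascular genes 1, the endothelial adhesion molecule Esam, was lower (-0.24 ± 0.09). Of 13 mitochondrially encoded genes 1, mt-Co2, was lower (-0.63).

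**Figure D4:**
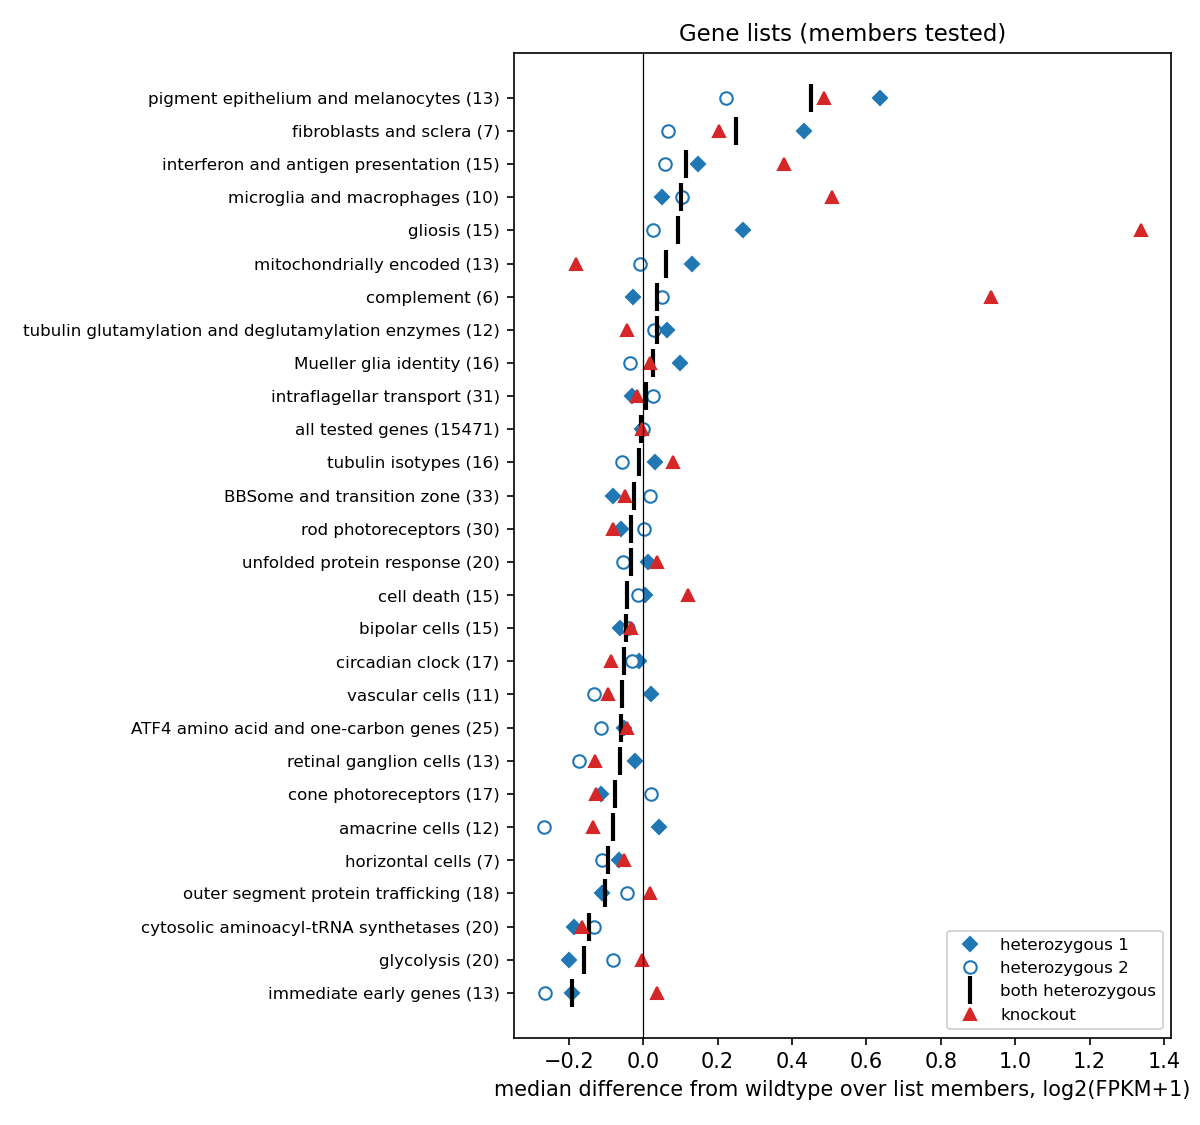
Median difference from wildtype over the tested members of each plotted gene list, in log2(FPKM + 1). Symbols show heterozygous 1 (diamond), heterozygous 2 (open circle), both heterozygous libraries (bar) and knockout (triangle), with the number of members in brackets. The gliosis median is 0.09 for both heterozygous libraries and 1.34 for knockout, and the rod and cone medians lie near 0. The lens list, with a median of 5.37 in heterozygous 1 and -0.25 in heterozygous 2, is not plotted. The Y-linked list and the shortest lists are left out as well.

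Many large shifts were seen in 1 heterozygous library and not the other. At 2-fold or more from the wildtype mean there were 359 genes (2.32%) in heterozygous 1, 189 higher (1.22%) and 170 lower (1.1%). In heterozygous 2 there were 190 (1.23%), 117 higher (0.756%) and 73 lower (0.472%), and 57 (0.368%) were this far off in both libraries in the same direction, 33 higher (0.213%) and 24 lower (0.155%). The 23 lens genes tested were all 2-fold or more higher in heterozygous 1 and none was in heterozygous 2, and 0 of them had an unadjusted p under 0.05 while the heterozygous libraries lay far apart from each other. All 13 pigment epithelium and melanocyte genes had a difference above 0, with a median of 0.64 in heterozygous 1 and 0.22 in heterozygous 2, and 0 passed. Their mean level was low in wildtype 1, at 2.29 on the log2 scale, while wildtype 2 at 3.45 stood above heterozygous 2 at 3.26. Ttr, the retinol transport protein transthyretin of the pigment epithelium, was at 21.4 and 38.6 FPKM in wildtype and 45.2 and 34.8 in heterozygous libraries, which overlapped (0.45 ± 0.34, and 0.041 without wildtype 1).

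Of the 619 genes, 258 kept an unadjusted p under 0.05 without heterozygous 1, in a fit that gave 949 such genes in all, and 359 did so without heterozygous 2. Without wildtype 1 it was 192, and without wildtype 2 it was 272. The direction of these genes is fixed by how they were chosen and is not counted. In 102 of the 619 the difference of heterozygous 1 was more than 2 times that of heterozygous 2, and in 41 the reverse held. Of 78 genes examined one by one, 61 had an unadjusted p under 0.05 and 14 had it under every alternative setting: Agbl5, Serpina3n, A2m, Nudt6, Cars, Yars, Aars, Tars, Mthfd2, Aldh18a1, Fos, Atf3, Nr4a3 and Sst. Among these, without heterozygous 1, Serpina3n differed by 0.82, A2m by 0.43, Cars by -0.49, Fos by -0.58 and Atf3 by -0.66. These genes are among those picked for passing under every setting, this one included, so that is no further support. Leaving out heterozygous 1 changed other named genes too. Per1 went from -0.48 to -0.22, B2m from 0.55 to 0.31 and Pfkl from -0.33 to -0.26. In the other direction, Mthfd2 went from -0.88 to -1.08 and Aldh18a1 from -0.74 to -0.90. Nars, Sars, Cp and Cebpd then differed by -0.13, -0.12, 0.16 and -0.47. These are examples and not a full list of the genes that depend on heterozygous 1. With a lens-level term in the fit 347 of the 619 kept an unadjusted p under 0.05, and with a Y-linked term 366.

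**Figure D5:**
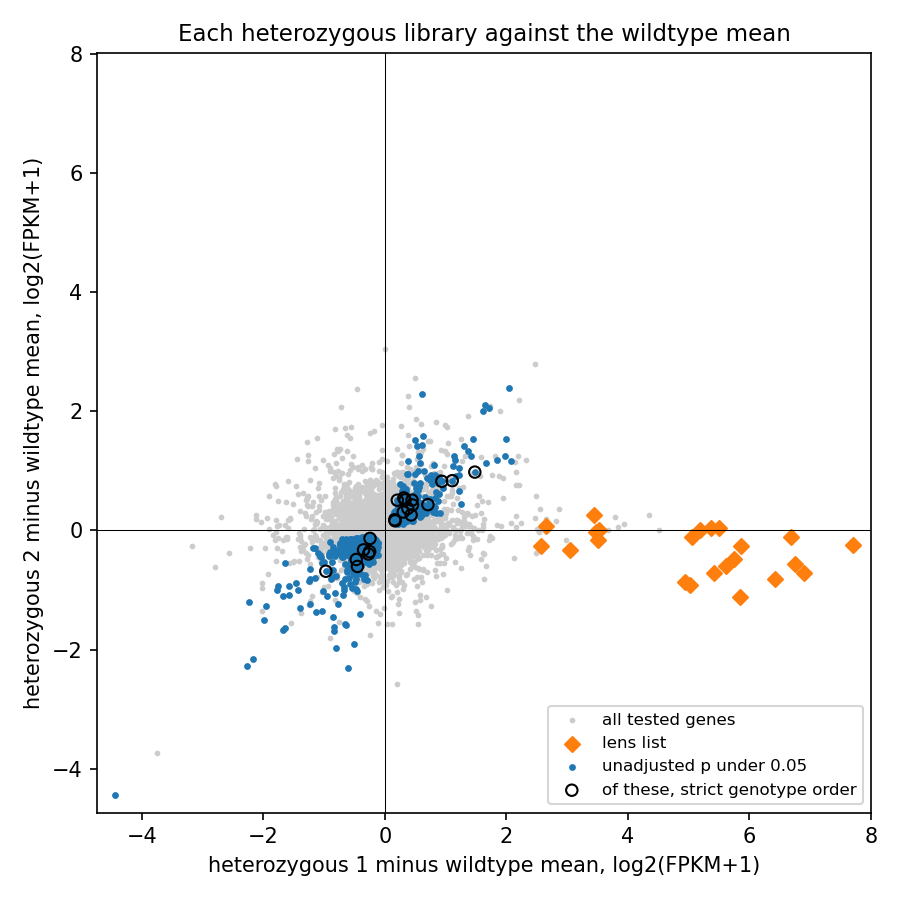
Difference of heterozygous 1 (horizontal) and heterozygous 2 (vertical) from the wildtype mean for all 15472 genes, in log2(FPKM + 1), with the lens list as orange diamonds, genes at an unadjusted p under 0.05 in blue and the 21 of these in strict genotype order circled. The lens genes run out along the horizontal axis alone. Many blue points lie near the diagonal, but they were chosen by a small p, which favours genes whose heterozygous libraries are alike.

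The largest upward differences outside these groups belonged to unrelated genes. Nudt6, whose transcript is antisense to and overlaps Fgf2, was at 1.06 and 1.19 FPKM in wildtype, 2.03 and 2.47 in heterozygous and 2.25, 2.58 and 1.96 in knockout libraries (0.61 ± 0.14). Without strand information, reads from the stretch where its exons overlap those of Fgf2 cannot be assigned to either gene. Fgf2 did not show this step. Spata45 was at 2.84 and 2.88, 5.46 and 5.91, and 2.84, 1.54 and 3.61 FPKM (0.79 ± 0.26), high in the heterozygous libraries alone of the 3 genotypes. Fabp4, a fatty acid binding protein of adipocytes, macrophages and endothelium, was at 1.49 and 2.56, 3.91 and 3.24, and 2.21, 1.99 and 2.13 FPKM (0.62 ± 0.18), and Acyp2, an acylphosphatase, was 0.64 ± 0.23 higher. The small heat shock protein Hspb1 was at 7.004 FPKM in heterozygous 1 and 4.24 in heterozygous 2 against 3.22 to 3.32 in wildtype (0.60 ± 0.20). Tmem123 was 0.57 ± 0.21 higher. Of these 6 genes Nudt6 was held in knockout and the other 5 were not.

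The other genes with the largest differences were copies that share reads with near-identical genes, so their values are uncertain. Upward these were Cbfa2t2-ps1 (0.95 ± 0.31), Rps12-ps9 (0.77 ± 0.26) and Rps13-ps2 (0.69 ± 0.22). Downward they were the globin Hba-a2 (-0.77 ± 0.24) and the ribosomal protein copies Rpl32l (-0.73 ± 0.17), Rpl14-ps1 (-0.70 ± 0.21), Rps3a2 (-0.68 ± 0.27) and Rpl17-ps5 (-0.66 ± 0.23). Rpl32l had 0.532 and 0.384 FPKM in heterozygous libraries against 1.71 and 1.16 in wildtype and 1.65 to 2.08 in knockout.

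At an unadjusted p under 0.05 the neighbourhood of Agbl5 did not stand apart in the heterozygous libraries. Of 116 tested genes within 5 Mb on either side, 2 were higher and 1 lower at an unadjusted p under 0.05 (2.59%, beside 4% of all genes), and the median difference was -0.01. Of these 116, 5 stood in strict genotype order, a larger share than the 1.25% of all tested genes. These 5 include a predicted model inside the Agbl5 span. It was at 2.10 and 2.30 FPKM in wildtype, 1.65 and 1.51 in heterozygous and 0.86, 0.59 and 0.67 in knockout libraries. Zfyve28, an endosomal protein also among the 5, was chosen after its values were seen. It was at 19.4 and 19.2 FPKM in wildtype, 19.6 and 20.6 in heterozygous and 31.8, 33.4 and 32.2 in knockout libraries. Its heterozygous difference was 0.06 ± 0.06.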

How the data were processed

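Polyadenylated RNA of 7 libraries was sequenced without strand information, per the labels' protocols. The authors deposited FPKM per gene and library; the submitters' processing notes name TopHat2 2.0.9, Bowtie2 2.0.6 and HTSeq, and the builds mm10 and GRCm38. The annotation release and the library size behind the FPKM are not given in the sources used here. Positions came from GENCODE M21, which held 54409 of the 54532 listed genes. Values within 0.01 of whole multiples of 1 read (96.8%) gave recovered reads for 32117 genes, used for depth and for voom. Otherwise log2(FPKM + 1) of genes with a mean FPKM of at least 1 was fitted in limma 3.58.1 (R 4.3.3; trend, 3 genotypes, 4 residual degrees of freedom), with contrasts heterozygous minus wildtype and heterozygous minus the midpoint, Benjamini-Hochberg adjusted. Intervals cover library spread. Gene lists are described by counts and medians, with no set test. Members, lists and rules were chosen with earlier results of these data known. Named genes were Agbl5, up to 12 per direction by size among nonoverlapping genes at an unadjusted p under 0.05, up to 6 per direction off the midpoint, up to 10 dose-like, up to 4 per list by p, and a fixed set of knockout, opsin, lens and sex genes. Predicted and small RNA models were counted but not named, apart from Gm23935 and the models in the closing section, chosen after their values were seen, and 1 gene of the fixed set is not reported here. Alternatives changed the pseudocount, filter, scale, covariates, libraries and tool; where a genotype was left with 1 library, it was assumed to vary like the others. The scripts were tested on simulated data.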

Additional observations from a re-analysis of the deposited data

How the results depend on the processing

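The 0 genes passing the adjusted threshold between heterozygous and wildtype became 19 with no filter on low values (all small RNA, pseudogene or other short models with a mean under 1 FPKM) and 1 with heterozygous and wildtype libraries alone, and ran from 0 to 3 when 1 library was left out. The 619 genes at an unadjusted p under 0.05 became 1391 with no filter and 331 at a mean of at least 5 FPKM, and ran from 355 (without wildtype 1) to 1841 (without heterozygous 2) when 1 library was left out. Off the midpoint, 0 became 8 with no filter and 9 by voom, and ran from 0 to 3 with 1 library left out; its 1209 unadjusted genes became 2073 with no filter, 800 at a mean of at least 5 FPKM and 698 on the TPM scale, and ran from 688 to 2545 with 1 library left out. The 194 strictly ordered genes became 303 with no filter, 106 at a mean of at least 5 FPKM, 392 on the TPM scale, 1190 without both lens-rich libraries and 2321 without these and wildtype 2 (a setting added after the data were seen), and ran from 292 to 827 with 1 library left out; fewer libraries make a strict order easier to meet. On the TPM scale the median difference of all genes was -0.08, against -0.01. With a replicate block, 0 genes passed, 541 had an unadjusted p under 0.05 and 1002 lay off the midpoint at that level. The replicate numbers do not pair the libraries by their labels. Deviations of same-numbered wildtype and heterozygous libraries correlated at -0.018. For heterozygous and knockout the correlation was 0.43 between the libraries numbered 1, both lens-rich, and 0.27 between those numbered 2. For wildtype and knockout it was 0.092 and -0.023.

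Of 77 genes examined, 68 never changed direction, and no call was gained; the cause of the reversals was not tested. Without both lens-rich libraries the difference was -0.24 for Cryaa, -0.028 for Opn1sw, 0.10 for Opn1mw, -0.19 for Gfap and -0.21 for Fgf2; with wildtype 2 left out too it was -0.93 for Cryaa, 0.020 for Opn1mw, -0.0047 for Gfap, -0.18 for Fgf2 and 0.036 for C1qb. On the TPM scale Opn1sw was -0.052 and Fgf2 -0.056, and without non-retinal genes C4b was 0.0024. With the lens term Cryaa was -0.074 and Fgf2 -0.061, and with the Y-linked term C4b was 0.044. With 1 library left out, the difference ran from -0.24 to 7.71 for Cryaa, -0.042 to 0.094 for Opn1sw, -0.28 to 0.10 for Opn1mw, -0.14 to 0.012 for Atf4, -0.47 to 0.27 for Edn2, -0.19 to 0.64 for Gfap, -0.21 to 0.25 for Fgf2 and -0.35 to 0.34 for C4b.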

Other observations

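The smallest p of the heterozygous comparison belonged to a gene model of 72 bases, Mir7027, which was noticed after its values were seen. It was at 9.50 and 9.21 FPKM in wildtype, 2.95 and 3.19 in heterozygous and 7.35, 9.84 and 8.13 in knockout libraries (limma, adjusted p = 0.348). These levels rest on 10, 10, 3, 3, 7, 10 and 8 recovered reads in that order.

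The pseudogene Gm9522, also chosen after its values were seen, was present or absent by library. It was at 20.2 and 21.1 FPKM in wildtype, listed at 0 in both heterozygous libraries, and at 21.9, 0.0765 and 20.4 FPKM in knockout 1, 2 and 3. It was the gene that passed with heterozygous and wildtype libraries alone (limma, adjusted p = 0.00418) and without knockout 2 (limma, adjusted p = 0.000111). Its reads can be shared with near-identical copies.

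Ip6k2, an inositol hexakisphosphate kinase, was the protein-coding gene among the 3 that passed without heterozygous 2, at a difference of -1.42 (limma, adjusted p = 0.0479).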
